A study of Mus musculus with 15 samples.

Results

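The AP-1 family was followed through 8 genes: Fos, Fosb, Fosl1, Fosl2, Jun, Junb, Jund and Atf3. They were chosen by name, by matching the Ensembl transcript of each row to its gene. All 8 had a row, with 1 transcript per gene, out of 12089 transcripts in the table, of which 11973 matched 11960 genes. All 8 passed the filter on low values, Fosl1 only through the cultured libraries.

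The libraries came from ICR mice, from the mandibular first molar germs of embryos at E14.5. Mouse dental mesenchymal cells (mDMCs) were obtained by digesting the dental mesenchyme with trypsin. RNA-seq was made from freshly isolated mDMCs (0 h, 3 libraries) and from mDMCs kept in medium with FBS for 12 h (2 libraries), 24 h (3), 36 h (3) or 48 h (3), and 1 library came from dental mesenchymal tissue. The study asked how expression changes in culture. No group carries an engineered allele, and whether the libraries of a time point came from separate litters or cultures is not given, so p-values measure the spread between these libraries, which may be technical.

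The values are whole numbers on a normalised scale, called scores here. Their scale is not that of sequenced reads. Every one of the 15 libraries had a median score of 721 and a largest score of 127101, which 10 transcripts of each library share. Reads per library are therefore unknown, and a shift in overall RNA content would not show. Summed scores of 15 dental mesenchyme markers lay between 263771 and 287513 at 0 h and between 208531 and 273039 at 48 h, and all 15 had a row. Of these markers 4 were higher and 7 lower at 12 h, and 1 was higher and 7 lower at 48 h, where 37.1% of all transcripts were higher and 34% lower. Red cell and endothelial markers fell in culture. The summed score of 8 red cell genes went from between 98060 and 150849 at 0 h to between 52 and 168 at 48 h, with 8 of 8 lower, and that of 7 endothelial genes went from between 8540 and 10157 to between 493 and 861, with 7 of 7 lower. Of 5 macrophage markers 4 were lower at 48 h, with sums of 908 to 1270 at 0 h and 452 to 781 at 48 h. Of 7 epithelial markers 3 were lower, near the share of all transcripts, and their sum was 13533 in 0 h replicate 1 against 1473 and 1780 in the other 0 h libraries. The part of these cells in the changes below was not tested. In bulk RNA, fewer cells of a type and less RNA per cell cannot be told apart.

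AP-1 is a dimer of basic leucine zipper proteins that binds DNA at short palindromic sites. Jun proteins pair with each other or with Fos proteins, and Fos proteins need a partner. Fos, Fosb, Jun and Junb are immediate-early genes, which serum, growth factors and tissue handling switch on without new protein synthesis. Fosl1 and Fosl2 encode Fra-1 and Fra-2, which lack the strong transactivation domain of Fos and FosB and are typically induced later. Atf3 encodes a stress-induced partner that often represses transcription.

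The coding sequences below show the part the members share. They cover the basic region, which touches DNA, and the start of the leucine zipper, which holds the dimer together. They are printed 5′ to 3′ on the coding strand from the transcripts of the GENCODE annotation of GRCm38, and were chosen to show the 4 Fos proteins beside Jun. Capitals mark the codons of the basic region's conserved asparagine, its alanine pair and its cysteine and arginine, and then 5 leucines spaced every 7 codons.
Fos: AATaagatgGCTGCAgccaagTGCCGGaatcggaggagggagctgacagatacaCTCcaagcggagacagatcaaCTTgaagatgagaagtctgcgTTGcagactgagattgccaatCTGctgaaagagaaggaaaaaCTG
Fosb: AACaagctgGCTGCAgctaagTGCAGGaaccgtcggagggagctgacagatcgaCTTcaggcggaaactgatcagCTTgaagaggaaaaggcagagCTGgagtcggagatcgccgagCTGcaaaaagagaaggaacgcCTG
Fosl1: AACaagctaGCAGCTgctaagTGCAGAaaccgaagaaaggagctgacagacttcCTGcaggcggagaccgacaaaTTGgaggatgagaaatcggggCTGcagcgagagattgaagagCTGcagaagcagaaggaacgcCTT
Fosl2: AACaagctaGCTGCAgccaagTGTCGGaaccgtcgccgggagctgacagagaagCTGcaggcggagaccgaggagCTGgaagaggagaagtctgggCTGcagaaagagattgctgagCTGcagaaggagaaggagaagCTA
Jun: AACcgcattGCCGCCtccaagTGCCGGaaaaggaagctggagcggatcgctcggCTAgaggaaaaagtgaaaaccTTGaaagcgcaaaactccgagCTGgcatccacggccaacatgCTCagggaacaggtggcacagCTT

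Each stretch has 141 bases, or 47 codons. In Fos it lies at chr12:85475637-85475894, in Fosb at chr7:19305225-19306621, in Fosl1 at chr19:5454458-5454969 and in Fosl2 at chr5:32150466-32152748, in each case split over the third and the fourth exon. In Jun it lies in the only exon, at chr4:95050339-95050479. Fos shared 78.7% of its 47 residues there with Fosb, 76.6% with Fosl1 and 78.7% with Fosl2, but 29.8% with Jun. Jun shared 89.4% with Jund and 78.7% with Junb. The 4 Fos proteins are thus close relatives in the part that binds DNA and pairs, while their transcripts moved in opposite directions in the data below.

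Fos and Fosb fell, and Fosl1 and Fosl2 rose, by 12 h of culture. Jun, Junb, Jund and Atf3 fell with Fos. At each of 12, 24, 36 and 48 h, 2 members were higher than at 0 h and 6 were lower by limma's adjusted p-value below 0.05. The background was large. Of all 12079 transcripts tested, 29.9% were higher and 28.3% lower after 12 h. The shares were 35% higher with 31.8% lower for 24 h, 36% higher with 34% lower for 36 h, and 37.1% higher with 34% lower for 48 h. The median log2 fold change of the members was −1.82 at 12 h and −1.89 at 48 h, where that of all transcripts was 0.02 and 0.03.

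Fos, on chromosome 12 (GRCm38, 85473890 to 85477273, plus strand, 4 exons), had scores of 16498, 40642 and 127101 in the 3 libraries at 0 h. After 12 h they were 1863 and 2027, after 24 h 1302, 1190 and 1242, after 36 h 1543, 1531 and 1279, and after 48 h 595, 943 and 1312. Every 0 h library was above every cultured library, although the 0 h libraries differed among themselves by 7.7 times. The largest of them stood at the highest score of the table, so its true level may be higher. The log2 fold change against 0 h was −4.50 (SE 0.58, adjusted p = 2.9e-05) at 12 h and −5.61 (SE 0.52, adjusted p = 7.4e-07) at 48 h. The size depended on the 0 h libraries. At 48 h it was −6.31 without 0 h replicate 1 and −4.84 without 0 h replicate 3, with the call kept in both.

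Fosb, which encodes another strongly activating Fos protein (chromosome 7, 19302696 to 19310051, minus strand, 4 exons), had scores of 2671, 5269 and 6623 at 0 h. After 12 h they were 262 and 305, after 24 h 254, 154 and 294, after 36 h 316, 329 and 292, and after 48 h 130, 127 and 377. The 0 h libraries again stood above all others. The log2 fold change was −4.00 (SE 0.45, adjusted p = 9.8e-06) at 12 h and −4.62 (SE 0.41, adjusted p = 4.6e-07) at 48 h.

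Fosl1, on chromosome 19 (5447547 to 5455946, plus strand, 4 exons), moved the other way. Its scores were 10, 11 and 18 at 0 h, near the bottom of the table, and 26 in the tissue. After 12 h they were 701 and 416, after 24 h 464, 523 and 767, after 36 h 348, 355 and 503, and after 48 h 375, 335 and 651. Every cultured library lay above every 0 h library. The 0 h scores were under 1 ppm of a library's summed score, so Fosl1 passed the filter only through libraries where it was high. The log2 fold change was 5.32 (SE 0.34, adjusted p = 8.7e-08) at 12 h and 5.0 (SE 0.31, adjusted p = 1.8e-08) at 48 h on the log2(score + 1) scale, which understates the change of low values. The gene Ccdc85b overlaps Fosl1 on the opposite strand, and strand use in counting is not given. Its mean score was 79.7 at 0 h and 146 at 48 h, so reads from the 2 genes cannot be told apart.

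Fosl2, on chromosome 5 (32135801 to 32157842, plus strand, 4 exons), rose less. Its scores were 2488, 3971 and 5487 at 0 h. After 12 h they were 7732 and 7424, and after 24 h 6101, 6335 and 8543. They were 5434, 5620 and 6948 at 36 h and 5842, 5165 and 6101 at 48 h. The groups at 12 and 24 h lay above the 0 h libraries, while those at 36 and 48 h overlapped them. The log2 fold change was 1.0 (SE 0.25, adjusted p = 0.00437) at 12 h, 0.87 (SE 0.23, adjusted p = 0.00424) at 24 h, 0.66 (SE 0.23, adjusted p = 0.0198) at 36 h and 0.59 (SE 0.23, adjusted p = 0.0325) at 48 h. The later calls rested on single libraries. At 48 h the log2 fold change was 0.29 (adjusted p = 0.159) without 0 h replicate 1, 0.62 (0.0537) without 0 h replicate 2, 0.57 (0.0735) without 48 h replicate 1 and 0.54 (0.0879) without 48 h replicate 3. At 36 h it was 0.35 (adjusted p = 0.0878) without 0 h replicate 1 and 0.55 (0.0771) without 36 h replicate 3.

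**Figure D1:**
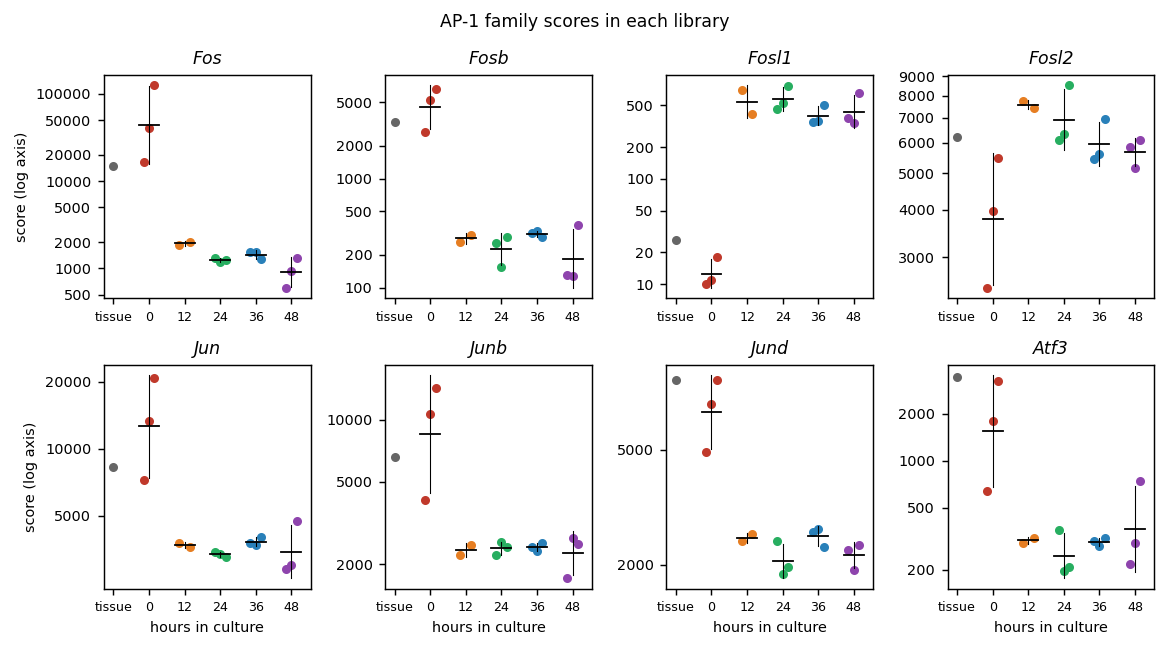
Score of each AP-1 member (log axis, a separate scale for each gene) in the tissue library and in every library at 0, 12, 24, 36 and 48 h of culture. Points are libraries, and lines give the mean and SD on the log scale. Fos falls from between 16498 and 127101 at 0 h to between 595 and 2027 in culture, and Fosl1 rises from at most 18 to at least 335.

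The Jun genes, the obligate partners of the Fos proteins, fell together and by less than Fos. Jun (chromosome 4, 95049034 to 95052222, minus strand, 1 exon) had scores of 7210, 13280 and 20857 at 0 h. Jun scored 3770 and 3627 after 12 h, after 24 h 3449, 3376 and 3259, after 36 h 3770, 3713 and 4023, and after 48 h 2891, 3003 and 4750. The ranges of 0 h and culture did not overlap. On the log2 scale Jun changed by −1.77 (SE 0.32, adjusted p = 4.5e-04) at 12 h and −1.87 (SE 0.29, adjusted p = 7.2e-05) at 48 h. The antisense gene Junos overlaps Jun and was not analysed here.

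Junb, which in many settings opposes Jun (chromosome 8, 84976910 to 84978718, minus strand, 1 exon), had scores of 4082, 10701 and 14356 at 0 h. Junb scored 2212 and 2483 after 12 h, after 24 h 2212, 2560 and 2408, after 36 h 2432, 2317 and 2529, and after 48 h 1705, 2687 and 2509. All cultured libraries lay below 0 h, with a log2 fold change of −1.87 (SE 0.38, adjusted p = 9.6e-04) at 12 h and −1.92 (SE 0.34, adjusted p = 2.1e-04) at 48 h.

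Jund, the member most often found at a steady level in resting cells (chromosome 8, 70698949 to 70700616, plus strand, 1 exon), had scores of 4892, 7210 and 8724 at 0 h. Jund scored 2408 and 2550 after 12 h, after 24 h 2408, 1851 and 1957, after 36 h 2587, 2655 and 2294, and after 48 h 2249, 1920 and 2343. Every 0 h library was higher, and the log2 fold change was −1.45 (SE 0.19, adjusted p = 3.9e-05) at 12 h and −1.64 (SE 0.17, adjusted p = 2.4e-06) at 48 h. The antisense gene Gm11175 overlaps Jund, and its mean score went from 722 at 0 h to 136 at 48 h, so the 2 cannot be told apart without strand.

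Atf3 (chromosome 1, 191170296 to 191183340, minus strand, 4 exons) had scores of 641, 1803 and 3264 at 0 h. Atf3 scored 298 and 321 after 12 h, after 24 h 362, 197 and 210, after 36 h 304, 284 and 318, and after 48 h 219, 297 and 745. The 48 h library with 745 was above the lowest 0 h library, so these groups overlapped. Against 0 h the log2 fold change was −2.33 (SE 0.58, adjusted p = 0.00403) at 12 h and −2.09 (SE 0.52, adjusted p = 0.00284) at 48 h. The 48 h value was −2.73 without 0 h replicate 1, −1.56 (adjusted p = 0.0144) without 0 h replicate 3 and −1.72 (adjusted p = 0.0162) without 48 h replicate 1, and no single library ended the call.

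Counted over all cultured libraries, 5 members (Fos, Fosb, Jun, Junb and Jund) had every 0 h library above every cultured one, a pattern that 22.6% of all transcripts showed. Fosl1 had every 0 h library below, as did 24.6% of all transcripts. The remaining members were Fosl2 and Atf3.

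**Figure D2:**
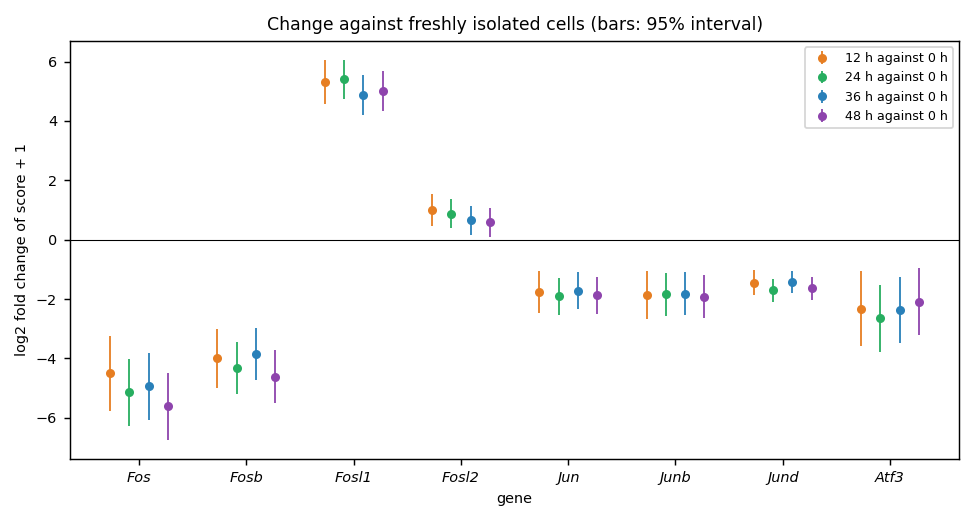
Log2 fold change of the score + 1 of each member at 12, 24, 36 and 48 h against 0 h, with 95% intervals from limma. Fosl1 lies between 4.87 and 5.40, Fosl2 between 0.59 and 1.0, and the other members below 0 at every time.

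The change was in place at 12 h, the first time sampled. Between successive times in culture, limma called 0 of 8 members, and 0 had an unadjusted p-value below 0.05. The smallest adjusted p among the members was 0.413 between 12 and 24 h, where 8.25% of all transcripts were called. It was 0.246 between 24 and 36 h (19.7% of all) and 0.45 between 36 and 48 h (0.0248% of all). This fit shares 1 spread over all times, the widely spread 0 h libraries included, and its 95% half-widths on the log2 scale ran from 0.38 for Jund to 1.13 for Fos between 24 and 36 h. With only the compared times fitted, Fos was called between 12 and 24 h (−0.64, adjusted p = 0.0474) and Jun between 24 and 36 h (0.19, adjusted p = 0.0412). The share of all transcripts called in these fits is not given here, and the shares above come from the fit over all times. Replicate numbers may pair the 24 h libraries with those of 36 h and with those of 48 h. Only the pairs of 24 h with 36 h were read here. In all 3 same-numbered pairs Fos, Jun and Jund were higher at 36 h, as were 28.3% of all transcripts, and Fosl1 and Fosl2 were lower, as were 32.1%. With the replicate number as a block, 0 members were called between these times, and Fosl1 was nearest, with a log2 fold change of −0.53 (adjusted p = 0.0525). Fos had the largest difference from 12 to 48 h, a log2 fold change of −1.10 (95% interval −2.37 to 0.16, adjusted p = 0.145). In the order of levels over the 5 time points, the step that passed in the fit over all times was for every member the one next to 0 h.

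To ask whether members swap, levels were compared between genes within a library after dividing each score by the length of its transcript in kb. Whether the scores had been corrected for length before is not given. At 0 h Fos made up 57% ± 12.9 (SD, n = 3) of the summed score per kb of the family. Its share was 14.1% ± 0.701 (n = 2) at 12 h and 7.99% ± 1.77 (n = 3) at 48 h. Fosl2 went from 1.65% ± 0.642 at 0 h to 17.7% ± 0.681 at 12 h and 16.1% ± 2.56 at 48 h. Fosl1 went from 0.0199% ± 0.0108 to 4.58% ± 1.69 and 4.33% ± 0.888, and Fosb from 3.37% ± 1.14 to 1.14% ± 0.111 and 0.958% ± 0.468. By 48 h the shares per kb were 19.9% ± 2.18 for Jun, 23.2% ± 4.8 for Junb and 24% ± 4.03 for Jund, each above Fosl2. This order reversed without division by length, where Fosl2 held 36.6%, Jun 22.2%, Junb 14.7% and Jund 13.9%. Shares sum to a whole, so a fall of Fos raises the others. The summed score per kb itself went from 45845 ± 34714 at 0 h to 5520 ± 1015 at 48 h, and without Fos from 16712 to 5069.

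**Figure D3:**
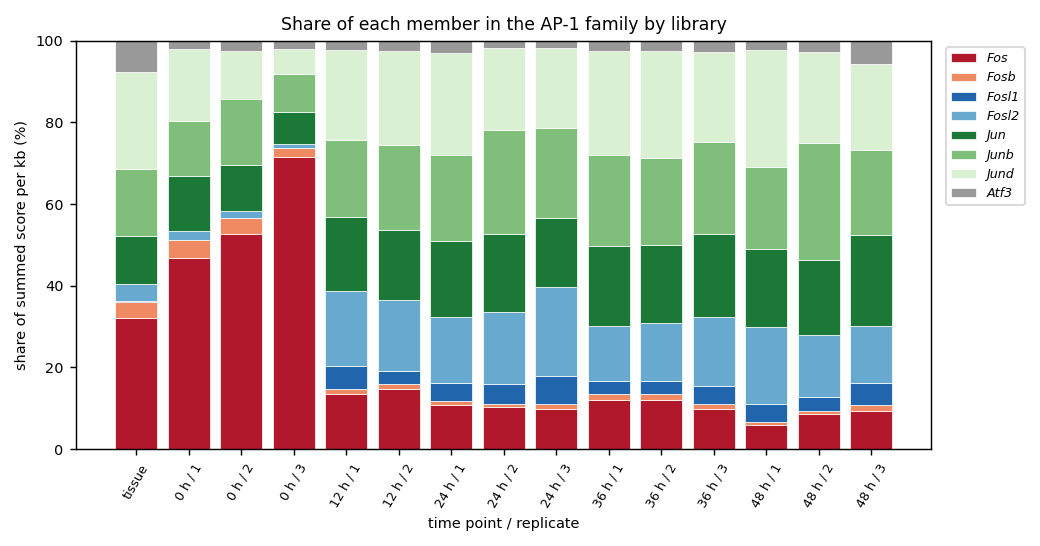
Share of each AP-1 member in the summed score per kb of the 8 members, in percent, for each of the 15 libraries. Fos holds between 46.9% and 71.6% in the 0 h libraries and 32.2% in the tissue, and its share is 14.1% on average at 12 h.

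Fos and Fosl2 changed places. Fos was 20.6 to 71.8 times higher than Fosl2 per kb in the 0 h libraries, and Fosl2 was 1.14 to 3.17 times higher than Fos in all 11 cultured libraries. Fosl2 was also above Fos in every cultured library by score per transcript. Fosl1 and Fosb changed places too. The ratio of Fosl1 to Fosb per kb lay between 0.00424 and 0.0076 at 0 h and between 2.19 and 6.89 in culture. By score per transcript Fosl1 was also above Fosb in every cultured library, but narrowly in 36 h replicates 1 and 2. There Fosl1 had 348 and 355, and Fosb 316 and 329. Fosl1 did not pass Fos in any library, with a highest ratio of 0.713. It stayed below Fosl2, at 0.197 to 0.374 of its level per kb in culture. The difference between 2 members' changes was tested in each library's log2 ratio, with ordinary variances. From 0 to 48 h, Fosl2 rose relative to Fos by 6.19 on the log2 scale (SE 0.45, adjusted p = 6.9e-06), and Fosl1 by 10.61 (SE 0.53, adjusted p = 2.3e-06). At 12 h the values were 5.50 (SE 0.50, adjusted p = 6.7e-05) and 9.82 (SE 0.59, adjusted p = 1.6e-05). Nearly every transcript changed relative to Fos, since 97.6% of all passed this test at 12 h and 98.3% at 48 h, so these calls do not set the members apart.

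Fosb fell with Fos. Its change relative to Fos was 0.50 (95% interval −0.59 to 1.59, adjusted p = 0.328) at 12 h and 0.99 (0.01 to 1.97, adjusted p = 0.0483) at 48 h. The latter was not called with limma's moderated variances, where the adjusted p was 0.135. Jun, Junb, Jund and Atf3 fell less than Fos, by a difference from 0 to 48 h of 3.74, 3.68, 3.96 and 3.51 on the log2 scale, with adjusted p-values from 1.1e-05 to 2.4e-05.

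The Jun genes did not change places in a detectable way. Relative to Jun, Junb changed by −0.06 (95% interval −0.50 to 0.38, adjusted p = 0.786) and Jund by 0.22 (−0.25 to 0.70, adjusted p = 0.331) from 0 to 48 h. At 12 h the values were −0.10 (−0.59 to 0.39) and 0.32 (−0.21 to 0.85). The background for this reference was 84.1% of all transcripts at 12 h and 86.8% at 48 h, and neither gene was among them. Atf3 changed relative to Jun by −0.23 (−0.94 to 0.49, adjusted p = 0.511). The ratio of Junb to Jun per kb lay between 0.931 and 1.58 over all 14 mDMC libraries, and that of Jund to Jun between 0.8 and 1.49. In the tissue library the ratio of Junb to Jun was 1.41, within that range. That of Jund to Jun was 2.02 there, above every mDMC library.

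**Figure D4:**
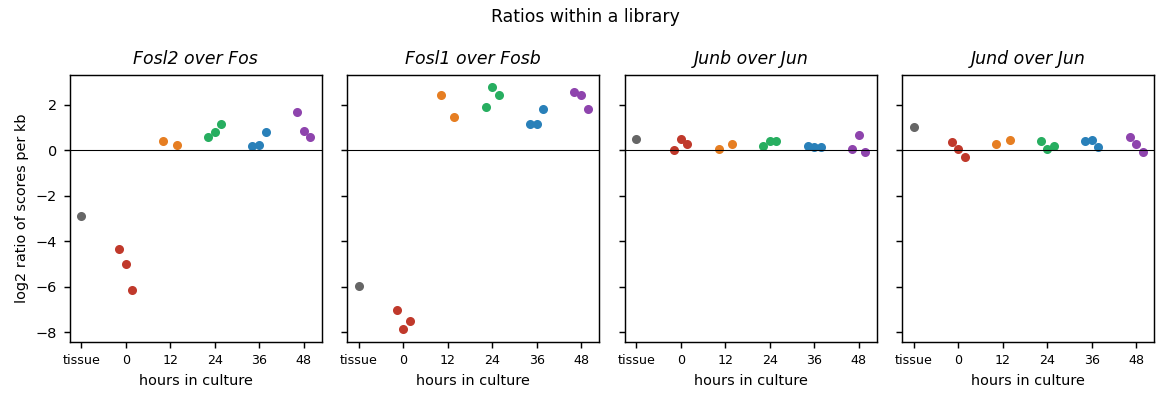
Log2 ratio of scores per kb within each library for Fosl2 over Fos, Fosl1 over Fosb, Junb over Jun and Jund over Jun, in the tissue and at 0, 12, 24, 36 and 48 h. The first and the second ratio cross 0 between 0 h and 12 h, and the ratios among Jun genes stay between −0.32 and 0.66 in the mDMC libraries.

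The tissue has 1 library, so its values are given with no test. Fos had 15089, below the lowest 0 h library, with a log2 difference from the 0 h mean of −1.54. Atf3 had 3428, above the highest 0 h library, with a log2 difference of 1.14. Fosl1 with 26 and Fosl2 with 6211 also lay above the 0 h libraries. Fosb with 3281, Jun with 8276, Junb with 6623 and Jund with 8724 lay within their range. Such places are common, since 29.7% of all transcripts lay above and 32% below the 0 h libraries in the tissue. By the fold alone, Atf3 was over 2-fold above and Fos over 2-fold below the 0 h mean, as were 2.56% and 1.22% of all transcripts. Both folds depended on the spread at 0 h, where Fos ranged from 16498 to 127101 and Atf3 from 641 to 3264. The tissue lay outside the range of the cultured libraries for every member but Fosl2, as it did for 62.6% of all transcripts. Fosl2 was 0.133 times Fos per kb in the tissue, so Fos was the higher of the pair there as at 0 h.

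The 0 h libraries differed in AP-1 level. Replicate 3 was above replicate 2, and replicate 2 above replicate 1, for 8 of 8 members, an order that 19.4% of all transcripts had. Replicate 3 exceeded replicate 1 by at least 2-fold in 6 of 8 members, against 3.34% of all transcripts. The ratio was 7.7 for Fos, 5.09 for Atf3, 3.52 for Junb, 2.89 for Jun, 2.48 for Fosb and 2.21 for Fosl2, and 1.8 for Fosl1 and 1.78 for Jund. Other immediate-early genes had the same order in 32 of 36 cases, and 27 of 36 differed by at least 2-fold. Heat shock genes summed to 98149, 102057 and 112869 in 0 h replicates 1, 2 and 3. Their sum was 91871 in the tissue and 96927, 103750 and 126264 in the 48 h libraries. The part of handling in the order of the 0 h libraries was not tested. At 48 h, replicate 3 was the highest library for 7 of 8 members, as for 27.6% of all transcripts. Without both 0 h replicate 3 and 48 h replicate 3, the log2 fold change at 48 h was still called for all 8 members.

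**Figure D5:**
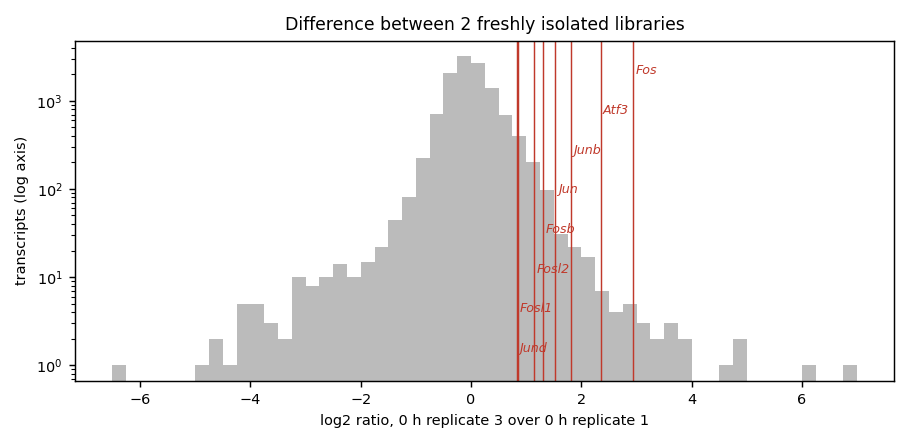
Number of transcripts (log axis) by the log2 ratio of 0 h replicate 3 over 0 h replicate 1, with the 8 AP-1 members as vertical lines. All 8 members lie to the right of 0, from a ratio of 1.78 for Jund to 7.7 for Fos.

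Other genes of the pathway were read from lists, by the counts of members called and their median. Over all transcripts, 29.9% were higher and 28.3% lower by 12 h, and 37.1% were higher and 34% lower by 48 h, with a median log2 fold change of 0.02 and 0.03. The list of 36 other immediate-early genes had 12 higher members and 12 lower ones by 12 h, near those shares. By 48 h it had 11 higher and 15 lower, with a median of −0.41. Ptgs2, the inducible cyclooxygenase, went from 360 ± 188 to 8414 ± 4560 by 48 h (SD over 3 libraries), which was 4.56 on the log2 scale (adjusted p = 6.8e-07). Ccn2, a matrix-associated growth factor target, rose by 3.80 (adjusted p = 9.7e-08). Socs3, a feedback inhibitor of cytokine signalling, fell by 3.59 (adjusted p = 3.7e-08), and Nfkbiz, a nuclear regulator of NF-kB, fell by 3.02 (adjusted p = 2.9e-05). The immediate-early genes therefore did not all move with Fos.

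The list of 33 other bZIP genes had 12 higher members and 9 lower ones by 12 h, against 11 and 12 by 48 h, which is near the shares of all transcripts. Its median log2 fold change at 48 h was −0.04, beside 0.03 for all. Batf3, a Jun partner, fell by 4.38 at 48 h (adjusted p = 2.2e-05). Ddit3, the stress-induced C/EBP family member, rose by 2.77 (adjusted p = 1.7e-06), and Atf5 rose by 2.54 (adjusted p = 4.3e-09). Tef, a PAR bZIP factor, fell by 2.52 at 12 h (adjusted p = 3.5e-07).

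For the MAP kinase input to AP-1, with 31 genes, the counts were 8 higher and 6 lower by 12 h, and by 48 h they were 11 higher and 11 lower. These counts lay near or below the shares of all transcripts, and the median at 48 h was −0.14, beside 0.03 for all. Map2k6, a kinase of the p38 branch, went from 804 ± 19 to 45.3 ± 5.03, a log2 fold change of −4.12 (adjusted p = 8.0e-10). Dusp4, a phosphatase that switches MAP kinases off, rose by 2.53 (adjusted p = 1.3e-05), and Mrtfa, a serum response factor cofactor, rose by 2.40 (adjusted p = 6.4e-07). Spry1, an inhibitor of receptor tyrosine kinase signalling, fell by 1.76 (adjusted p = 2.2e-05).

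Genes known as AP-1 targets mostly rose. This list was chosen with earlier results of these data known, so its counts are no independent test. Of the 24 with values, 21 passed as higher and 2 as lower by 12 h, and 19 as higher and 3 as lower by 48 h, where 29.9% and then 37.1% of all transcripts were higher. Their median log2 fold change was 2.43 at 12 h and 3.02 at 48 h, where that of all transcripts was 0.02 and 0.03. Lif, a cytokine, went from 1.67 ± 2.08 at 0 h to 677 ± 195 at 48 h (adjusted p = 4.4e-09). Ereg, an EGF receptor ligand, went from 9.67 ± 5.13 to 1440 ± 268 (adjusted p = 2.1e-09). Timp1, a metalloproteinase inhibitor, went from 180 ± 22.9 to 9679 ± 2810, a log2 fold change of 5.71 (adjusted p = 7.7e-11). Mmp10, a matrix metalloproteinase, was listed at 0 in the 0 h libraries and had a mean of 215 at 48 h. These genes also respond to other factors, and the part of AP-1 in their change was not tested. The 11 heat shock genes had 4 higher and 1 lower at either time, and the share higher was near that of all transcripts. Hspb1 rose by 3.79 at 48 h (adjusted p = 1.4e-05), Hsf1 by 0.60 (adjusted p = 1.8e-04) and Hsp90aa1 by 0.48 (adjusted p = 0.0243), and Dnajb1 fell by 0.94 (adjusted p = 0.00394).

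The transcripts most like each member were found by Pearson's r of log2 scores over the 14 mDMC libraries, given as a description because the libraries share their time points. Fos was most like Trps1 (r = 0.981), Rgmb (0.979) and Pard3b (0.978), and Fosb most like Socs3 (0.977). Fosl1 was most like Ptprn (0.994), Spire1 (0.992) and Rnf150 (0.992), and Fosl2 most like Taf4b (0.967), Otud1 (0.938) and Sgk1 (0.929). Fos was among the 3 most alike transcripts of Fosb, Jun, Junb and Jund. Junb was most like Ier2 (0.973), and Atf3 most like Jun (0.965). The opposite course of Fos and Fosl1 was one between 0 h and culture. Their r was −0.91 over 14 libraries and 0.25 over the 11 cultured ones, while Fosl1 and Fosl2 had 0.81 and 0.79.

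The 250 bases before the start of each gene were searched on both strands for the AP-1 site TGANTCA, the CRE-like site TGACGTCA and the CArG box of serum response factor, in RefSeq promoters of GRCm38.p6. Of the 7 promoters of members in that set, 0 held any of these. Among all 32851 promoters, 6.75%, 1.55% and 1.47% did. No match says only that these letters are not in this window.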

How the data were processed

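RNA-seq scores were taken from 1 table of 15 libraries, grouped by the sample labels. The authors trimmed the reads, mapped them to the mouse transcriptome (mm10, Ensembl) with bowtie and RSEM (version 1.1.21 in the submitters' processing notes), and deposited whole-number scores. The table is named as cpm, but totals of 21357605 to 21365980 per library exceed that unit, and 71.9% of ranks carry 1 score shared by every library. The analysis had foreseen scaled counts, so limma on log2(score + 1) was used instead of a count test. Depth is unknown, and no counting interval can be given.

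Transcripts were matched to GENCODE genes of GRCm38. A limma model (version 3.58.1 under R 4.3.3) gave each time point of the 14 mDMC libraries its own mean, with an intensity trend. It covered the 12079 transcripts that reached 1 ppm of a library's summed score in 2 or more libraries. A call is a Benjamini-Hochberg adjusted p-value below 0.05, two-sided. The tissue has 1 library and was left out of the fit. Changes relative to Fos or Jun were fitted on log2 differences with ordinary variances, because all rows share the reference's spread, which the moderation treats as if it were separate in each row. This setting was chosen after seeing the data. The test was first tried on simulated data. Descriptions and plots used Python 3.11.15, numpy 2.4.6, pandas 2.3.3 and matplotlib 3.10.9.

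The members and gene lists were chosen with earlier results of these data known. The lists were written from general knowledge, and 4 symbols were matched through RefSeq synonyms. Named genes are every member, up to 4 called genes per list with the largest change from 0 h to 48 h and up to 2 to 12 h, and the 3 transcripts most alike to each member. The result of 1 gene that this rule names is not reported here. Alternatives were pseudocounts of 0.1 and 10, no filter, a filter in all 14 libraries, trimmed-mean scaling, only the compared time points, no intensity trend, the replicate number as a block, the study's threshold of p below 0.05 and a fold above 2, shares without division by length, and each replicate left out. Leaving out both 0 h replicate 3 and 48 h replicate 3 was added after seeing the data.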

Additional observations from a re-analysis of the deposited data

How the results depend on the processing

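Of the changes of single members against 0 h under the alternatives, 489 kept their direction and call and 11 lost the call, all of them for Fosl2, and 0 reversed. Besides the libraries named above, Fosl2 lost its call at 36 h (adjusted p = 0.0616) and 48 h (0.0759) when only the compared time points were fitted, and at 24, 36 and 48 h under a fold above 2. Between culture times, where no member had been called, 371 stayed without a call, 14 of the 373 changed sign, and 2 gained a call with only the compared time points, so that the count of members called was 1 from 12 to 24 h (Fos, −0.64) and 1 from 24 to 36 h (Jun, 0.19), where it had been 0. The cause was not tested. With each replicate left out, the count of members called was 8 at 12 h and 24 h and between 7 and 8 at 36 h and 48 h, and 0 between culture times. A filter in all 14 libraries leaves out Fosl1, which was under 1 ppm at 0 h.

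Same-numbered libraries of different time points correlated in their deviations at −0.25 to 0.32 over 26 pairs, with 11 above 0.1, against 6 of 52 pairs with different numbers. All 3 pairs were above 0.1 only for 24 h with 36 h (0.13 to 0.16) and 24 h with 48 h (0.20 to 0.32), so the numbers may pair those libraries, and for 0 h with any culture time they do not meet that mark. With the replicate block, 8 members were called at each of 12, 24, 36 and 48 h against 0 h and 0 between successive times, 24 h and 36 h included, so it changed no count. Of Fosb, Fosl1, Fosl2 and Atf3, 3 changed relative to Fos with moderated variances, and 4 with ordinary variances or without 0 h replicate 1. Shares of the family depended on division by length. Without it, Fosl2 held 39.5% at 12 h and 36.6% at 48 h in place of 17.7% and 16.1%, and Jund 13.9% at 48 h in place of 24%, while Fos held 53.4% at 0 h and 5.92% at 48 h. Unknown depth and the cap at 127101 limit what can be said of Fos at 0 h.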
